A study of Mus musculus with 2 samples.

Results

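Axon guidance genes encode secreted and membrane-bound cues and the receptors that read them, and here they were described in 2 arrays of mouse primary osteoblasts. Members were taken by gene symbol: every gene with a symbol of the semaphorin classes 3 to 7, plexins A to D, neuropilins 1 and 2, ephrins, Eph receptors, Slits 1 to 3, Robos 1 to 4, netrins 1 to 5 or Unc5 receptors, read by probe sets annotated to that 1 symbol. This gave 69 genes with 150 probe sets, of 18193 named genes and 45101 probe sets. One array held RNA of wild-type osteoblasts and the other RNA of osteoblasts from mice without Slc39a13 (Slc39a13-KO), a zinc transporter gene whose exons 6 to 8 were removed by gene targeting. Both cultures came from calvaria of newborn mice, released by collagenase and dispase, and were grown in medium with serum; the sources used here tie no strain, sex or number of pups to either culture. The allele was made in R1 embryonic stem cells, and the methods name C57/B6J mice for other RNA. With 1 array per genotype no difference has a replicate check, and no test between genotypes was made.

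In all of these pathways a cue on or from one cell binds a receptor on another and steers the actin cytoskeleton, and so attracts or repels the cell that carries the receptor. Semaphorins act through plexins, with neuropilins as co-receptors for most of the secreted class 3. Ephrins bind Eph receptor tyrosine kinases, Slits bind Robos, and netrins bind Dcc, neogenin and the Unc5 receptors. In bone, Sema3A is known as an osteoblast product that restrains osteoclasts, Sema4D from osteoclasts acts on plexin-B1 of osteoblasts, and ephrin-B2 with EphB4 links both cell types.

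Values are MAS5 signals, linear intensities scaled so that both arrays have the same trimmed mean. A signal floor of 85.1, the 50th percentile of all signals, was used, probe sets above it in at least 1 array count as measured, and lower signals were raised to it before ratios were taken. Log2 ratios are of Slc39a13-KO over wild-type, averaged over the measured probe sets of a gene, and its SD is the spread between those probe sets, a technical error only. A gene was called higher or lower at a difference of 2-fold or more with all its measured probe sets of 1 sign. The size of this threshold follows the methods of the study. A difference with a signal at the floor is a bound on that mean and is written as at least N-fold. The SD of such a gene is taken after signals were raised and can differ from that of the unraised signals.

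Slc39a13 itself read 1309 in the wild-type array against 90.4 in the Slc39a13-KO array, 14.5-fold lower, by 1 probe set whose place relative to the removed exons was not established. Of the osteoblast markers, Col1a1 (means over its probe sets of 12230 and 7655) and Col1a2 (28503 and 25943), the chains of type I collagen, had high signals in both arrays. Alpl, the alkaline phosphatase of mineralizing osteoblasts, was at 70.6 in wild-type, below the floor, and at 197.4 in Slc39a13-KO, and was thus at least 2.32-fold higher. Also called higher were Pth1r, the parathyroid hormone receptor (295.1 and 1534), and Dmp1, a marker of osteocytes (highest signals of 21.1 and 673.2, at least 4.50-fold). The regulator Sp7, Sparc and Ifitm5 were not called, and the matrix gene Ibsp and the osteocyte gene Phex were below the floor in both. Of 8 osteoblast markers measured, 3 were called higher and 0 lower, and the sum of the highest signals of the 10 markers on the array was 105500 in wild-type and 124184 in Slc39a13-KO. Markers of other cells differed more. Of 17 chondrocyte markers measured, 16 were called higher and 0 lower, and the sum over all 19 was 9219 in wild-type and 173360 in Slc39a13-KO. Sox9, the transcription factor of cartilage, was at 294.2 and 3480. Col2a1, the collagen of cartilage, was at 2592 and 47019, and Acan, the cartilage proteoglycan, at 23.5 and 4456. Of 12 smooth muscle and pericyte markers, all measured, 7 were called lower and 1 higher (sums of 95575 and 41538), with the actin gene Acta2 at least 3.06-fold lower. Of 10 endothelial markers only 3 were measured, 1 of them called lower (sums over all 10 of 732.0 and 468.3), and the defining markers Pecam1 (6.87 and 8.41) and Cdh5 (58.3 and 85.7) were below the floor or, for Cdh5 in Slc39a13-KO, just above it. All 13 macrophage and osteoclast markers were measured, 7 called higher and 0 lower (sums of 5133 and 7746). Of these sums Ctsk, which was not called, held 4227 in wild-type and 2956 in Slc39a13-KO. Of 12 neural and glial markers 7 were measured, 1 called higher and 2 lower (sums of 2164 and 3517). In these sums S100b, the 1 called higher, held 173.1 in wild-type and 2426 in Slc39a13-KO. Tubb3 and Ngfr, called lower, held 557.3 and 443.2 in wild-type and 34.4 and 52.6 in Slc39a13-KO. The part of these other cells in the differences of guidance genes was not tested, and in bulk RNA fewer cells of a type and less RNA per cell cannot be told apart.

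Of the 69 guidance genes, 50 (72.5%) were measured, against 67.4% of all named genes. The signal was at least 2-fold higher in Slc39a13-KO for 9 of them (18.0%) and at least 2-fold lower for another 9 (18.0%). Over all 12269 measured genes, 8.01% were called higher and 5.93% lower, so the share of guidance genes called was above that of all genes in both directions. Scaled on the poly-A controls, bacterial transcripts meant to be spiked in before labelling, 45.5% of guidance genes and 45.8% of all genes were higher. On this scale 55 guidance genes were measured and 3 of them (5.45%) were called lower, against 1.75% of all genes. A larger share of guidance genes there was thus left only for genes called lower and rests on these 3 genes. The median log2 ratio of the guidance genes was 0.21, against 0.11 for all genes. Fewer of them were close to no difference: 24 of 50 (48.0%) lay within 1.5-fold, against 67.7% of all genes. Probe sets of 1 guidance gene also spread more, with a median SD of 0.41 over the 28 genes with several measured probe sets, against 0.34 over all genes. Of these 28 genes, 7 had probe sets of both signs, which the rule for calls leaves out.

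The called genes were spread over both sides of the signalling. Of 27 measured ligands, 5 were higher and 5 lower, and of 23 measured receptors, 4 were higher and 4 lower. Most were measured in both genotypes: 43 of the 50 genes were above the floor in both arrays, 3 in wild-type alone (Epha7 and Sema3d, called lower, and Slit1, not called) and 4 in Slc39a13-KO alone, none of which was called. Of the 18 called genes, 15 rested on more than 1 probe set.

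**Figure D1:**
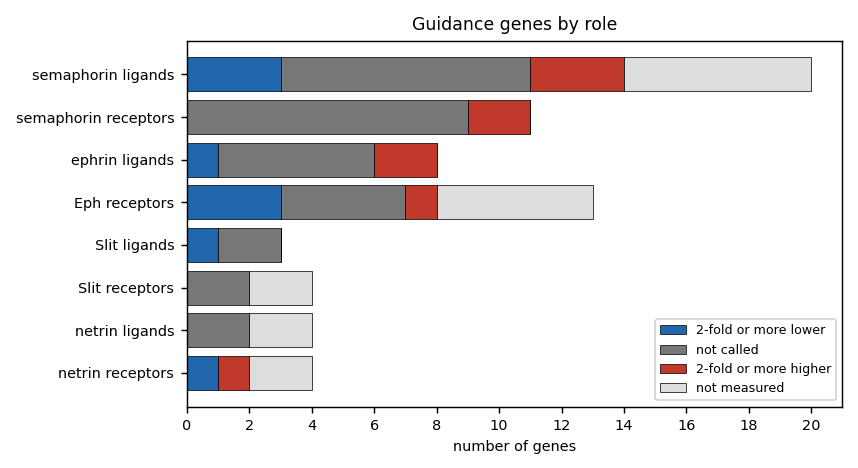
Number of guidance genes by role (horizontal axis), split into genes at least 2-fold lower in Slc39a13-KO (blue), measured but not called (dark grey), at least 2-fold higher (red) and not measured (light grey). Semaphorin receptors hold 2 higher and 0 lower genes of 11, Eph receptors 1 higher and 3 lower of 8 measured.

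Of the 20 semaphorins, 14 were measured, with 3 higher, 3 lower and 8 not called. The class 3 semaphorins, which are secreted, split evenly: Sema3a and Sema3b were higher and Sema3c and Sema3d lower. Sema3a, the collapsing factor of sensory axons, had signals of 686.2, 275.1 and 57.9 by its 3 probe sets in wild-type and 2184, 1557 and 349.3 in Slc39a13-KO. Each probe set was higher in Slc39a13-KO, and the mean difference was at least 4.20-fold (log2 2.07 ± 0.42, SD, n = 3 probe sets). Sema3b, which signals through neuropilins and plexins A, had signals of 160.8, 33.8 and 23.3 in wild-type and 806.1, 332.9 and 163.5 in Slc39a13-KO, at least 3.35-fold higher. Its wild-type signals were thus below the floor in 2 of 3 probe sets.

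Sema3c, which guides cells of the cardiac outflow tract, had the opposite difference. Its signals were 3832 and 443.3 in wild-type and 1297 and 252.0 in Slc39a13-KO, 2.28-fold lower (log2 -1.19 ± 0.53, SD, n = 2 probe sets). The brighter probe set differed more, by -1.56 on the log2 scale against -0.81 for the other. Sema3d, a further secreted class 3 semaphorin, had signals of 379.0 and 91.4 in wild-type and of 69.5 and 25.4 in Slc39a13-KO, both below the floor there, and was at least 2.19-fold lower. Sema3e, the ligand of plexin-D1, had probe sets of both signs (on average at least 0.27 on the log2 scale), and Sema3f, the main ligand of neuropilin-2, differed by -0.23; neither was called.

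In the mouse genome Sema3d and Sema3a are neighbours on chromosome 5 with 0 protein-coding genes between them, and they were called in opposite directions. Sema3e lies on the same chromosome 3 protein-coding genes beyond Sema3a and was not called. On chromosome 9, Sema3b was higher while Sema3f, separated from it by 3 protein-coding genes, was not called.

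Outside class 3 the calls were Sema6c and Sema7a. Sema6c, a transmembrane ligand of the plexin A group, read 114.0 in wild-type against 357.4 in Slc39a13-KO, 3.14-fold higher, by the only measured probe set of its 3. Sema7a, a membrane-anchored semaphorin that binds plexin-C1 and integrins, read 684.9 in wild-type against 315.0 in Slc39a13-KO, 2.17-fold lower, by 1 measured probe set of 2. Under a lower floor, at the 30th percentile of signals, where further probe sets of these genes count, both lost their calls, at 0.82 for Sema6c and -0.64 for Sema7a on the log2 scale. The remaining measured semaphorins were not called. On the log2 scale Sema4g lay at 0.90, Sema4c at 0.75, Sema4d at 0.20 and Sema6d at 0.00, while Sema5a (at least 0.94) and Sema6a (at least 0.62) were below the floor in wild-type. Sema4d, the osteoclast cue named above, was close to the floor in both arrays, with 117.3 and 134.7 by its 1 measured probe set. Sema3g, Sema4a, Sema4b, Sema4f, Sema5b and Sema6b were not measured.

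The 250 bases before the start of 2 of these genes are shown because Sema3a and Sema3c are secreted ligands of 1 class that differed in opposite directions. They are from the RefSeq promoter table of build GRCm38.p6, both on the + strand, at chr5:13396534-13396783 for Sema3a and chr5:17574566-17574815 for Sema3c, written 5′ to 3′ on the gene's strand. Capitals mark matches to 3 motifs searched on both strands: the GC box GGGCGG, the TATA box TATAAA, and the core of the metal response element, TGCGCNC or TGCACNC, to which the zinc-sensing factor Mtf1 binds.
Sema3a: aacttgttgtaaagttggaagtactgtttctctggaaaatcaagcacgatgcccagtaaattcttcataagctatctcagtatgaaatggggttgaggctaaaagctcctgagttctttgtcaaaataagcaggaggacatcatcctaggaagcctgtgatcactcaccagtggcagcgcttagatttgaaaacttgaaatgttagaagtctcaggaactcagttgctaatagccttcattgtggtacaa
Sema3c: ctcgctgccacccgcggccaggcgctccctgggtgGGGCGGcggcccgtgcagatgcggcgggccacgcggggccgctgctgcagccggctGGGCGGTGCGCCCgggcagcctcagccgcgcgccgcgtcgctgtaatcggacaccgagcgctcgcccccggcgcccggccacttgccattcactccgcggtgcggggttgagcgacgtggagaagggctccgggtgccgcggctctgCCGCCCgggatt
The Sema3a window held no match to any of the 3 motifs and 2 CpG dinucleotides. The Sema3c window held 3 GC boxes, 1 of them adjoining 1 metal response element core, and 39 CpG dinucleotides. Of the 69 genes 59 were matched to promoters, with 75 windows in all, since a gene can have several starts. A GC box was in 72.0% of these windows, against 32.7% of all 32851 windows of this length, and the median number of CpG dinucleotides was 15 against 6. For genes called higher 7 of 10 windows held one, and for genes called lower 9 of 11. The metal response element core was in 24.0% of the windows against 21.4% of all, and in 2 of 10 windows of genes called higher and 2 of 11 of genes called lower. The TATA box was in 2.67% of the windows, those of Slit2 and Efnb2, against 12.4% of all. The windows of all promoters belong to 27025 genes and were not limited to genes named on the array, so the 2 sets differ in this too. A match describes the letters only and is not a bound site.

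All 11 semaphorin receptors were measured, with 2 higher, 0 lower and 9 not called. Nrp2, neuropilin-2, a co-receptor of class 3 semaphorins and of VEGF-C, had signals of 547.6, 536.6 and 454.7 in wild-type and 1244, 1190 and 1182 in Slc39a13-KO. Each of its 3 measured probe sets was higher in Slc39a13-KO, and the mean difference was 2.36-fold (log2 1.24 ± 0.12, SD, n = 3 probe sets). Plxnb1, the receptor of Sema4D, had signals of 208.5 and 163.6 in wild-type and 464.2 and 497.2 in Slc39a13-KO, 2.60-fold higher (log2 1.38 ± 0.32, SD, n = 2 probe sets). Nrp2 lost its call when both arrays were divided by their medians, at 0.99 on the log2 scale, and Plxnb1 lost it with a floor at the 70th percentile, at 0.59.

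Nrp1, neuropilin-1, through which Sema3A signals, was not called: its 4 probe sets lay between -0.04 and 0.53 on the log2 scale, with a mean of 0.23. Plxna3, a plexin of class 3 semaphorins, came closest to the threshold among the rest at 0.89, when bounds are taken as values. Its signals were 105.1 and 253.3 in wild-type and 208.2 and 440.3 in Slc39a13-KO. Plxna1 had probe sets of opposite signs, 2099 against 1093 in one and 132.2 against 162.8 in the other, and a mean of -0.32. Plxna2 (-0.01), Plxna4 (0.05), Plxnb2 (-0.05), Plxnc1 (-0.02, with a probe set at the floor), the receptor of Sema7a, and Plxnd1 (-0.06) lay near 0 on the log2 scale. Plxnb3 lay at 0.21 or more, with 27.0 in wild-type, below the floor, and 98.5 in Slc39a13-KO by its measured probe set. A higher signal for Sema3a and for Nrp2 and Plxnb1 thus stood beside plexins A, C and D without a call.

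**Figure D2:**
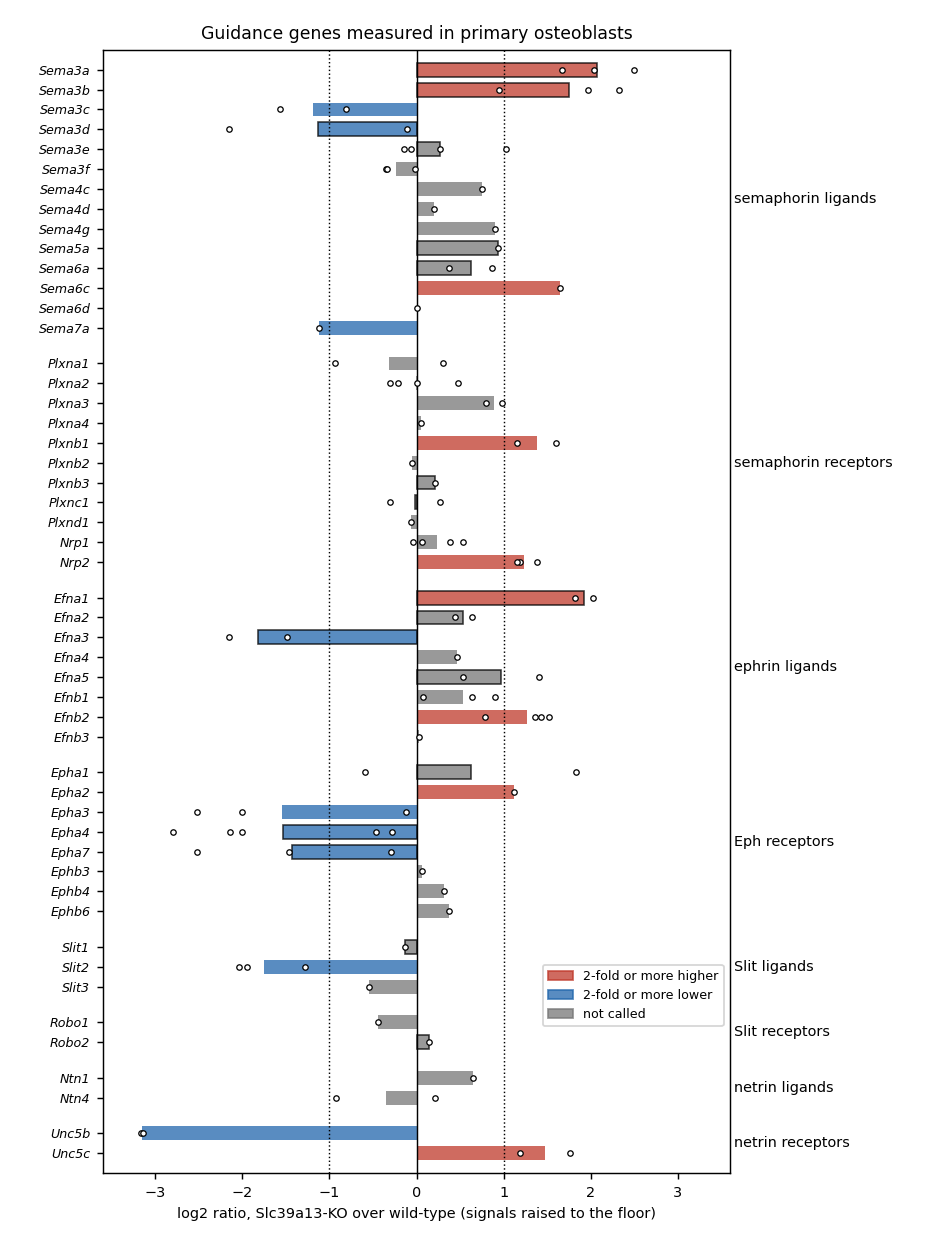
The log2 ratio of Slc39a13-KO over wild-type (horizontal axis) for each of the 50 measured guidance genes, grouped by role. Bars are means over the measured probe sets, circles are single probe sets, an outlined bar contains a signal at the floor, and dotted lines mark 2-fold; Unc5b reaches -3.15 and Sema3a 2.07.

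Ephrins are bound to the membrane, ephrins A by a lipid anchor and ephrins B by a transmembrane domain, so they signal between touching cells. All 8 were measured, with 2 higher, 1 lower and 5 not called. Efna1 had signals of 131.9 and 59.0 in wild-type and 463.9 and 346.4 in Slc39a13-KO, at least 3.78-fold higher (log2 1.92 ± 0.15, SD, n = 2 probe sets). Without the floor these probe sets of Efna1 lay further apart, at 1.81 and 2.55 on the log2 scale. Efna3 had the opposite difference, from 922.7 and 238.7 in wild-type to 208.2 and 68.8 in Slc39a13-KO, at least 3.53-fold lower (log2 -1.82 ± 0.47, SD, n = 2 probe sets). Efna1, Efna3 and Efna4 follow each other on chromosome 3 with 0 protein-coding genes between neighbours, and Efna4 was not called, at 349.7 in wild-type against 482.3 in Slc39a13-KO. Efna1 was not called with a floor at the 70th percentile, at 0.33 on the log2 scale.

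Efnb2, the ephrin of arteries and of osteoclasts, was read by 4 probe sets. Their signals were 1336, 483.9, 145.1 and 123.0 in wild-type and 3593, 1387, 371.4 and 213.0 in Slc39a13-KO. All 4 were higher in Slc39a13-KO, by 2.42-fold on average (log2 1.27 ± 0.33, SD, n = 4 probe sets). Efnb1, the other ephrin B with a known part in skull sutures, lay at 0.54 on the log2 scale, with its 3 probe sets between 0.07 and 0.91, and Efnb3 at 0.03. Efna5 had a brighter probe set at 936.9 in wild-type and 2476 in Slc39a13-KO, 2.64-fold higher, and a dimmer one at 24.9, below the floor, and 123.2. Its mean log2 ratio was at least 0.97, and it was not called here but was called higher under 7 alternatives: loess scaling, poly-A scaling, floors at the 30th and 70th percentiles, no floor, the brightest probe set alone, and only probe sets past the floor in each array. Efna2 lay at 0.54 or more.

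Of the 13 Eph receptors taken by the rule, 8 were measured, with 1 higher, 3 lower and 4 not called. Ephb2 is not among the 13, since no probe set was annotated to its symbol alone. EphA receptors, which mostly bind ephrins A, had 1 higher, 3 lower and 1 not called of 5 measured, with a median log2 ratio of -1.43 when bounds are taken as values. The 3 measured EphB receptors, which mostly bind ephrins B, had no call and a median of 0.32. Epha4, which also binds ephrins B, had signals of 1138, 995.2, 684.8, 457.9 and 103.2 in wild-type and 258.2, 143.9, 170.9, 332.0 and 8.30 in Slc39a13-KO. All 5 probe sets were lower in Slc39a13-KO, by at least 2.90-fold on average, but unequally. The dimmest fell below the floor in Slc39a13-KO, so its log2 ratio of -0.28 is a bound, and it was -3.64 without the floor. The others lay between -2.79 and -0.46 on the log2 scale. The SD over all 5, with the bound taken as a value, was 1.11.

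Epha3, a receptor of ephrins A, had signals of 745.8, 663.0 and 103.1 in wild-type and 185.6, 115.2 and 94.9 in Slc39a13-KO, 2.93-fold lower on average. Its bright probe sets carried this difference and the dimmest one hardly differed, at -0.12 on the log2 scale (SD over the 3 of 1.27). Epha7, a further receptor of ephrins A, had signals of 488.4, 234.1 and 104.4 in wild-type and 34.3, 25.2 and 21.1 in Slc39a13-KO, all below the floor there. This put it at least 2.69-fold lower on average and its brightest probe set at least 5.74-fold lower. Epha2, a receptor of ephrin-A1, had the opposite difference, at 278.8 in wild-type against 604.5 in Slc39a13-KO, 2.17-fold higher by its 1 probe set. Epha2 was not called under 3 other scalings of the arrays, with log2 ratios of 0.87 to 0.98, nor with a floor at the 70th percentile, at 0.92. The median of the EphA receptors was negative under each of 4 other scalings, between -1.55 and -0.63, and that of the EphB receptors positive. The genes measured were not the same throughout, with 8 EphA receptors under loess scaling and 4 EphB receptors on the poly-A controls. On the poly-A controls 1 EphA receptor was called higher and 1 lower.

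Among the Eph receptors without a call, Epha1 had probe sets of opposite signs, with 69.3 against 302.8 in one and 141.2 against 93.7 in the other. Ephb4, the receptor of ephrin-B2 on osteoblasts, read 339.2 in wild-type against 423.2 in Slc39a13-KO, a log2 ratio of 0.32, beside the 2.42-fold higher Efnb2. Ephb3 lay at 0.06 and Ephb6, which lacks kinase activity, at 0.37. Epha5, Epha6, Epha8, Epha10 and Ephb1 were not measured.

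**Figure D3:**
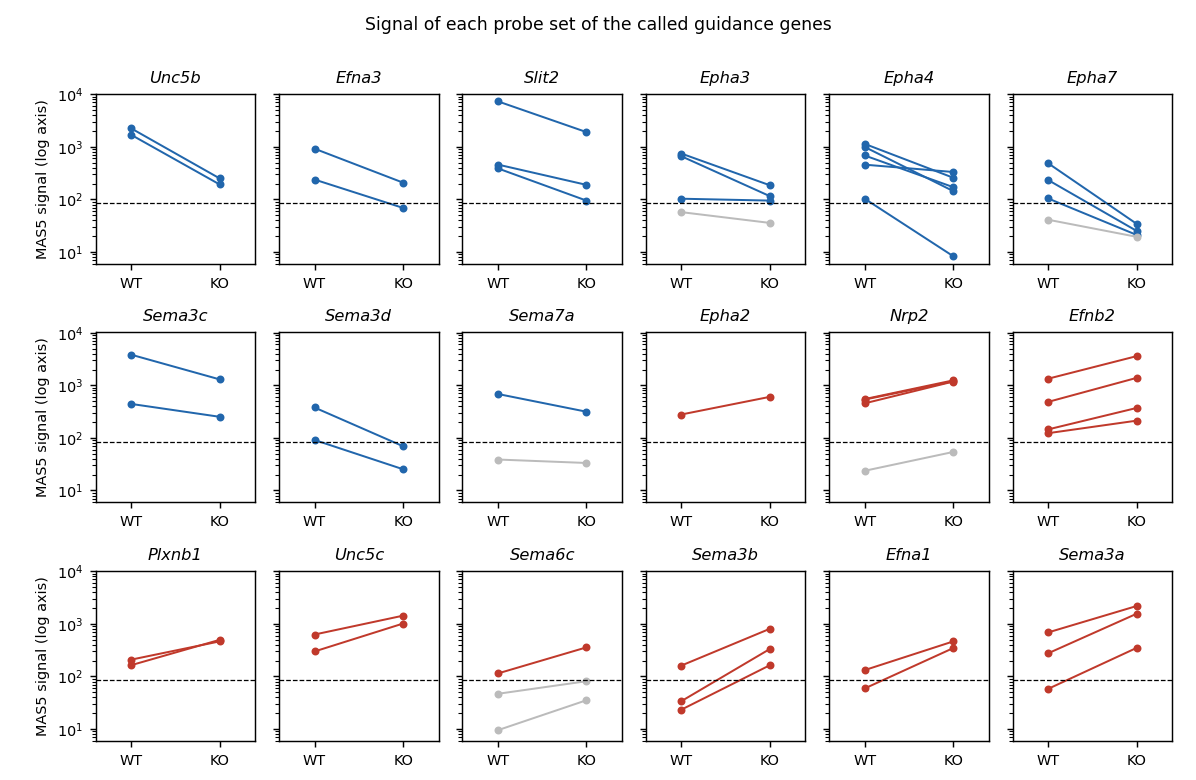
MAS5 signal (vertical log axis) of each probe set of the 18 called guidance genes in the wild-type (WT) and Slc39a13-KO (KO) array, with blue for lower, red for higher and grey for probe sets not measured; the dashed line is the floor of 85.1. The lines of a gene's measured probe sets run in 1 direction, close together for Unc5b and Nrp2 and unequally for Epha3 and Epha4.

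Slit2, a large secreted repellent, was the only Slit called. Its signals were 7330, 459.6 and 389.0 in wild-type and 1905, 189.0 and 94.9 in Slc39a13-KO. All 3 probe sets were lower in Slc39a13-KO, by 3.37-fold on average (log2 -1.75 ± 0.41, SD, n = 3 probe sets). With a floor at the 70th percentile its log2 ratio was -0.92 and it was not called. Slit3, known in bone as a cue between osteoclasts, osteoblasts and vessels, read 954.6 and 654.3, a log2 ratio of -0.54, and Slit1 read 93.3 in wild-type and 22.9 in Slc39a13-KO, below the floor there. Of their receptors, Robo1 read 1322 in wild-type and 970.9 in Slc39a13-KO (-0.44 on the log2 scale). Robo2 read 33.1 in wild-type, below the floor there, and 94.1 in Slc39a13-KO, and Robo3 and Robo4 were not measured. Robo1 and Robo2, neighbours on chromosome 16, had no call. Robo2 was called higher with a floor at the 30th percentile and without a floor. Without a floor Robo4 was also called higher, and Slit1 and Robo3 were called lower.

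Of the guidance genes above the floor in both arrays by every measured probe set, a netrin receptor had the largest difference. Unc5b, a receptor of netrin-1 known for restraining vessel sprouts, had signals of 2247 and 1695 in wild-type and 250.5 and 192.2 in Slc39a13-KO. Its 2 probe sets gave nearly the same ratio, 8.89-fold lower (log2 -3.15 ± 0.02, SD, n = 2 probe sets), and both stayed above the floor. Of the endothelial markers, Pecam1 and Cdh5 were below the floor in wild-type, while Flt1, a VEGF receptor, was at least 2.54-fold lower in Slc39a13-KO, and the part of endothelial cells in the difference of Unc5b was not tested. Unc5c, the Unc5 receptor of repelled neurons, had the opposite difference, from 626.5 and 298.5 in wild-type to 1432 and 1015 in Slc39a13-KO, 2.79-fold higher (log2 1.48 ± 0.41, SD, n = 2 probe sets). The calls of Unc5b, Unc5c, Sema3a and Efnb2 held under all 11 alternative scalings, floors and ways of combining probe sets. Unc5a and Unc5d were not measured, nor were Unc5cl and the antisense transcript Plxna4os1, which match the rule by name but are no receptors of these families.

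The promoter windows of this pair are shown for the same reason as those of Sema3a and Sema3c, since 2 receptors of 1 ligand family were called in opposite directions. They lie at chr10:60831582-60831831 on the - strand for Unc5b and at chr3:141465314-141465563 on the + strand for Unc5c (GRCm38.p6), with capitals for the same motifs.
Unc5b: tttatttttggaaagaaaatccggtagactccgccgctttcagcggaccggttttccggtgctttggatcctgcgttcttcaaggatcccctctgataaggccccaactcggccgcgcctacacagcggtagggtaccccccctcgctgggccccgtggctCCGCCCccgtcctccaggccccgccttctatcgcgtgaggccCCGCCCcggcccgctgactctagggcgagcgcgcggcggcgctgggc
Unc5c: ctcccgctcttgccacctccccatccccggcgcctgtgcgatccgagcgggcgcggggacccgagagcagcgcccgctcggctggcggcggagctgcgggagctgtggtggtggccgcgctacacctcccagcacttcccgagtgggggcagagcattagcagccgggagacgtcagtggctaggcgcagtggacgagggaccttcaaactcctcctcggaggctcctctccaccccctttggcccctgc
The Unc5b window held 2 GC boxes, both on the opposite strand, and 27 CpG dinucleotides. The Unc5c window held no match to the 3 motifs and 23 CpG dinucleotides. Neither window held a metal response element core.

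Netrins themselves had no call. Ntn1, the founding netrin, read 188.2 in wild-type and 296.0 in Slc39a13-KO by its 1 measured probe set of 2, a log2 ratio of 0.65. Ntn4, a netrin that binds laminins, had probe sets of opposite signs, 2375 against 1255 in the brighter and 392.4 against 454.1 in the other. Ntn3 and Ntn5 were not measured. Dcc, the attractive netrin receptor, read 163.2 and 103.4, and Neo1, neogenin, had a log2 ratio of 0.58; neither was called.

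**Figure D4:**
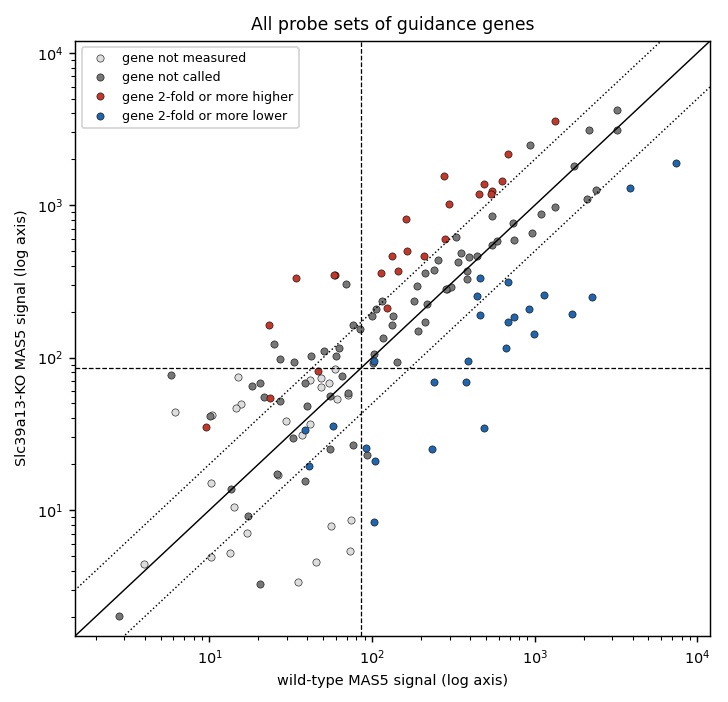
Signal of all 150 probe sets of guidance genes in the wild-type (horizontal log axis) and Slc39a13-KO (vertical log axis) array, coloured by the call of their gene. The solid line is equality, dotted lines are 2-fold and dashed lines the floor of 85.1; blue points of genes called lower reach signals of 7330 in wild-type, and red points of genes called higher reach 3593 in Slc39a13-KO.

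Proteins that carry these signals inside the cell or assist the receptors were described from lists of 110 further genes. Of the 92 measured, 9 were called higher (of all genes 8.01% were) and 9 lower (5.93%), 9.78% each, and their median log2 ratio was 0.07. Among 22 semaphorin co-receptors and effectors measured, Itga1, an integrin subunit that binds collagen and Sema7A, was at least 5.55-fold higher. In the same list Mical2, an enzyme that oxidizes actin below plexins, was 3.28-fold lower and Crmp1, a mediator of Sema3A, at least 2.91-fold lower. Of 21 Eph and ephrin effectors, Itsn1, an exchange factor for Cdc42, was at least 2.33-fold higher. The Rac exchange factors Tiam1 and Vav2 were 2.49-fold and 2.16-fold lower, and Chn1, a Rac-inactivating protein below Epha4, at least 2.71-fold lower.

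All 18 Slit and Robo effectors on the array were measured, with 3 higher and 0 lower and a median of 0.38. Srgap1, which binds Robo and inactivates Cdc42, was 2.70-fold higher, Sdc3, a heparan sulfate proteoglycan, 3.76-fold and Flrt3, a membrane protein that binds Robo1 and Unc5, 3.12-fold. Of 16 netrin co-receptors and effectors, Rgma, a ligand of neogenin, was 3.31-fold higher, Flrt1 2.17-fold and Maged1 2.08-fold. Flrt2, a ligand of Unc5 receptors, was 2.68-fold lower and Ablim1, an actin-binding protein, 3.50-fold lower. Of 16 shared cytoskeletal targets, the cofilin phosphatase Ssh3 was 3.13-fold higher and the cofilin kinases Limk1 and Limk2 were lower, by at least 2.36-fold and by 2.27-fold. Crmp1, Tiam1, Vav2, Chn1, Srgap1, Rgma, Flrt1, Maged1 and Ssh3 rested on 1 measured probe set each. Calls of single pathway genes under the alternatives are not given here.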

How the data were processed

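Total RNA of 1 wild-type and 1 Slc39a13-KO culture of primary osteoblasts was biotin-labelled and measured on Affymetrix mouse genome arrays of 45101 probe sets (64 controls). According to the submitters' processing notes, the deposited values are linear signal intensities that the authors computed with MAS5. The study's methods describe gcRMA for its own analysis, but the positive linear values with a 2% trimmed mean of 500.003 in both arrays are those of MAS5. No version and no detection calls were used. Such scaling hides a difference in total mRNA per cell, and low MAS5 signals are noisy.

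The platform annotation gave 34945 probe sets 1 symbol, and 34741 (99.4%) of these matched the RefSeq table of GRCm38.p6 by gene ID, which left every symbol as it was. Probe sets with several symbols (932) or none were left out. The arrays were brought to 1 trimmed mean, and floor, log2 ratios, gene means and calls were computed as given above in Python 3.11.15 with numpy 2.4.6 and pandas 2.3.3. Calling was tested on simulated data with noise between probe sets only. That simulation holds no variation between cultures and so cannot tell how far the calls would repeat. The number of arrays limits the precision.

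Members and lists were chosen with earlier results of these data known. Named were Slc39a13, each called guidance gene with the signals of its measured probe sets, the others by ratio or name, the called pathway genes and 9 cell markers. Dcc, Neo1, Flt1, S100b, Tubb3, Ngfr, Ctsk and the osteoblast markers beyond Alpl, Col1a1 and Col1a2 were named after their values were seen. Alternatives were other scalings (medians, quantile, loess, poly-A controls), floors, probe set rules and fold thresholds.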

Additional observations from a re-analysis of the deposited data

How the results depend on the processing

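The number of guidance genes called higher was 9 and became 25 when the arrays were scaled on the poly-A controls, 5 with a floor at the 70th percentile, 15 without a floor, 16 at a 1.5-fold and 4 at a 3-fold threshold. The number called lower was 9 and became 3 on the poly-A controls and 3 at 3-fold. These controls were lower in Slc39a13-KO in 24 of 24 probe sets (median log2 -1.02), and that scaling moved the median of all genes by 0.84, to 0.94, and that of the guidance genes from 0.21 to 0.97. Directions above are therefore relative to the bulk of genes. The share of called guidance genes that were higher was 9 of 18, and 43.8% with median scaling, 47.1% with quantile, 42.9% with loess and 89.3% with poly-A scaling (all genes 57.5%, 38.3%, 47.5%, 34.7% and 96.3%). On the poly-A controls Efna3, Epha3, Epha4, Sema3c, Sema7a and Slit2 lost their calls, at -0.95, -0.63, -0.83, -0.17, -0.10 and -0.73 on the log2 scale. With a floor at the 70th percentile so did Sema3b (0.70), Sema6c (0.16), Epha7 (-0.61) and Sema3d (-0.25), beside those named above, and without a floor Sema7a (-0.67). With probe sets restricted to those above the floor both in wild-type and in Slc39a13-KO, chosen after seeing the data, 10 genes were higher and 7 lower of 43. No log2 ratio of a called gene changed sign under the 11 alternatives that recompute it, except that Epha7 and Sema3d gave no ratio under the last one. No paired analysis was possible because each genotype has 1 array. Signals below the floor limit Sema3a, Sema3b, Efna1, Efna3 and Epha4 to bounds by some probe sets, and Sema3d and Epha7 by all measured ones.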
